A study of Mus musculus with 2 samples.

Results

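Signals of 10 genes of major histocompatibility complex (MHC) class I antigen presentation were read in 2 single mouse cells, 1 from a newborn (postnatal day 0, P0) and 1 from an embryo of day 12.5 (E12.5). The genes were H2-K1, H2-D1, B2m, Tap1, Tap2, Tapbp, Psmb8, Psmb9, Psmb10 and Irf7. They were read by the 27 probe sets whose only gene symbol in the platform annotation was one of these names, out of 34958 probe sets with 1 symbol and 18194 genes in all. The set was put together with the signals of both cells known, so the differences below are descriptions without a test. Each cell came from a dissociated retina of CD1 mice, an outbred albino stock, and no gene was altered and no agent was given in either. The submitters assigned both cells to the ciliary body after the arrays had been read, from the genes they expressed, and gave no independent record of position. Each age is 1 cell on 1 array, so there is no replicate spread, no standard error and no p-value, and every difference is between these 2 cells.

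Class I molecules carry short peptides from a cell's own proteins to its surface, where cytotoxic T cells read them. The immunoproteasome cuts the proteins, a pair of transporters moves the peptides into the endoplasmic reticulum, and a loading complex fits them to a heavy chain held by beta-2-microglobulin. Interferons raise the genes of this pathway together in most tissues, while neurons and young neural tissue are known for low class I levels and the eye for restrained immune responses.

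Signals are MAS5 intensities in arbitrary units. MAS5 is Affymetrix software that corrects each probe set for mismatch signal and brings every array to the same overall brightness. Background was read from 175 probe sets of gene families that eye cells are not known to use, such as olfactory receptors. Their 99th percentile served as the limit and lay at 349 in the newborn cell and 259 in the embryonic cell. A gene was called higher in a cell when its signal there passed the limit and was at least 4 times the other cell's signal, signals below a limit having first been raised to it. Where the dimmer signal was below its limit, only a lower bound can be given, and the fold carries "at least". The probe set of highest mean log2 signal stands for the gene, and other probe sets are given or counted beside it where they bear on a named gene. For genes detected in both cells by more than 1 probe set, the log2 ratios of the brightest pair differed by 1.16 (root mean square, 975 genes). This spread comes from the same 2 amplified cDNAs, so it holds probe error together with any transcript form or 3' coverage that differs between these cells, and it leaves out the variation among cells of an age.

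The arrays differed beyond these genes. After the authors' scaling the 18 probe sets of hybridisation spike-ins were 1.83-fold brighter in the newborn cell (median), and scaling to them would shift every log2 ratio by -0.87. Of all calls 55.9% were higher in the newborn cell, or 33.1% after that scaling. The 3' over 5' signal ratio of the actin control was 2.20 in the newborn cell and 6.17 in the embryonic cell, and that of the Gapdh control was 1.43 in the newborn cell and 1.06 in the embryonic cell. Of 20 ciliary margin genes, 8 passed the limit in the newborn cell and 9 in the embryonic cell. Zic1, Zic2, Ccnd2, Rdh10, Cdon and Wfdc1 passed it in both. Sox9 and Bmp7 were called higher in the newborn cell, and Cdon, Wfdc1, Otx1, Gja1 and Mecom in the embryonic cell. Sox9 was at least 35.2-fold higher in the newborn cell (9110 against 48.1 in the embryonic cell). A second Sox9 probe set was at least 2.13-fold higher there, short of a call, and another was below the limit in both cells. Of the 6 other probe sets of Ccnd2, 2 were called higher in the newborn cell and 1 in the embryonic cell, so they disagreed. The other 9 ciliary margin genes, among them Msx1, Msx2, Bmp4 and Mitf, were below the limit in both. Of 14 retinal progenitor genes, 11 passed it in each cell, but 2 were called higher in the newborn cell and 5 in the embryonic cell. Of all genes, 28.4% passed the limit in the newborn cell and 30.2% in the embryonic cell. Called higher were 9.23% of all genes in the newborn cell and 7.3% in the embryonic cell. Lhx2 was 7.28-fold and Nr2e1 at least 13.0-fold higher in the newborn cell. Sfrp2 was 38.4-fold, Ccnd1 at least 32.0-fold, Fgf15 at least 25.8-fold, Pax6 15.4-fold and Hes1 8.63-fold higher in the embryonic cell. These identity genes differed between the same 2 cells as the class I genes below, and their part in those differences was not tested.

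The stretches of DNA before the start sites are shown for the genes that stood higher in the newborn cell, and for the Tap1 and Psmb9 pair that passed no limit, because class I genes are known to share short promoter elements. The letters are RefSeq's for GRCm38.p6, a C57BL/6J genome and not that of the CD1 cells. For the first 4 genes they are the 250 bases before the annotated start, and for Tap1 they are the 225 bases between its start and that of Psmb9, which is read the other way. Each is written 5′ to 3′ on the gene's own strand, and capitals mark a motif match on either strand.
B2m upstream, chr2:122147437-122147686, plus strand: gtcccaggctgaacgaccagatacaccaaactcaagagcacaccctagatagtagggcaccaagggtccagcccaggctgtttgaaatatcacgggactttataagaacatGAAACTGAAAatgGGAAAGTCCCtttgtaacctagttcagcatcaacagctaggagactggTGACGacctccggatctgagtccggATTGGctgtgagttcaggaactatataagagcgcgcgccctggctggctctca
Psmb10 upstream, chr8:105938393-105938642, minus strand: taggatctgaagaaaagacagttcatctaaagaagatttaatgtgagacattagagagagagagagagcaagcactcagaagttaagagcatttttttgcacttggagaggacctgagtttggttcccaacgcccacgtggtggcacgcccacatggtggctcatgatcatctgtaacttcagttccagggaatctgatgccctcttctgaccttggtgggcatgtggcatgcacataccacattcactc
Irf7 upstream, chr7:141266425-141266674, minus strand: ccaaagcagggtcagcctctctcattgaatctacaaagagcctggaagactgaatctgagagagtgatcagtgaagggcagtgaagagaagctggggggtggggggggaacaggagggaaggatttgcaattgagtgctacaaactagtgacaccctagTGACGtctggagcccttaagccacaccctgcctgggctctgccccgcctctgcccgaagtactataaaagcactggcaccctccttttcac
Tapbp upstream, chr17:33919228-33919477, plus strand: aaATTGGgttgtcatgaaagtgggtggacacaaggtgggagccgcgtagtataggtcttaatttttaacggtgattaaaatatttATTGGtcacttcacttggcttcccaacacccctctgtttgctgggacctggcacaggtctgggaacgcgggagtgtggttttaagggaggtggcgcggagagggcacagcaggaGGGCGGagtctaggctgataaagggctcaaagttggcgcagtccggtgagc
Tap1 upstream, chr17:34187331-34187555, plus strand: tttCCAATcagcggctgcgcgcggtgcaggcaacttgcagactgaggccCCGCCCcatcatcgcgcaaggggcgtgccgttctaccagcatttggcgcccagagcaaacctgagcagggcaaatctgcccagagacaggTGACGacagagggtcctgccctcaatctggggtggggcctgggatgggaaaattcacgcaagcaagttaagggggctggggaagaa

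The motifs were searched on both strands over 250 bases upstream of 9 of the 10 genes, Tap2 having been left out, and over 32851 promoter entries of the same length. The core of the interferon-stimulated response element, GAAA, any 2 bases and GAAA, which interferon regulatory factors bind, was found in B2m alone, 139 bases before the start, and in 2.98% of all entries. Just after it, at 126 bases before the start, B2m held a match on the opposite strand to the NF-kappaB motif, GGG, any 2 bases and TTTCC, which 1.41% of entries held. The Y box CCAAT, bound by NF-Y, was present in B2m, Tap1, Tapbp, Psmb9, H2-K1 and H2-D1, 6 of 9 genes, against 33.8% of entries. The X2 box core TGACG was present in B2m, Tap1, Psmb9, Irf7, H2-K1 and H2-D1, also 6 of 9, against 17.8% of entries, and its palindromic form TGACGTCA, which contains that core, was in 0 of 9 genes and 1.55% of entries. The gamma-activated site TTCNNNGAA was found in Psmb8 only (7.02% of entries), and the GC box GGGCGG in Tap1, Tapbp and Psmb9 (32.7% of entries). Because Tap1 and Psmb9 share the stretch between their starts, their matches are the same letters counted for both. Psmb10 had the largest fold of the 10 genes once signals were raised to the limits, where some other folds are only lower bounds. It held none of the 7 motifs in this window, and Irf7 held only TGACG. A match describes letters and not a bound site, and no match says only that the letters are not in this window.

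Of the 10 genes, Psmb10, B2m and Irf7 were called higher in the newborn cell and 0 in the embryonic cell, beside 9.23% of all genes called higher in the newborn cell and 7.3% in the embryonic cell. With casein kinases, which most cells express, kept among the background genes, Psmb10 alone was called. Above the limit were 4 of the 10 in the newborn cell and 3 in the embryonic cell, beside 28.4% and 30.2% of all genes, with Psmb10 and B2m above it in both. Counted by probe set, 7 of 27 passed the limit in the newborn cell and 3 in the embryonic cell, beside 22.4% and 24% of all probe sets. Of these 27, 6 were called higher in the newborn cell and 0 in the embryonic cell, beside 7.21% and 5.68% of all. They belonged to B2m, Tapbp, Psmb10, Irf7 and H2-K1. The other 5 genes, Tap1, Tap2, Psmb8, Psmb9 and H2-D1, had 17 probe sets and none above the limit in either cell. As the genes were chosen from these signals, nothing is read from the shares.

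**Figure D1:**
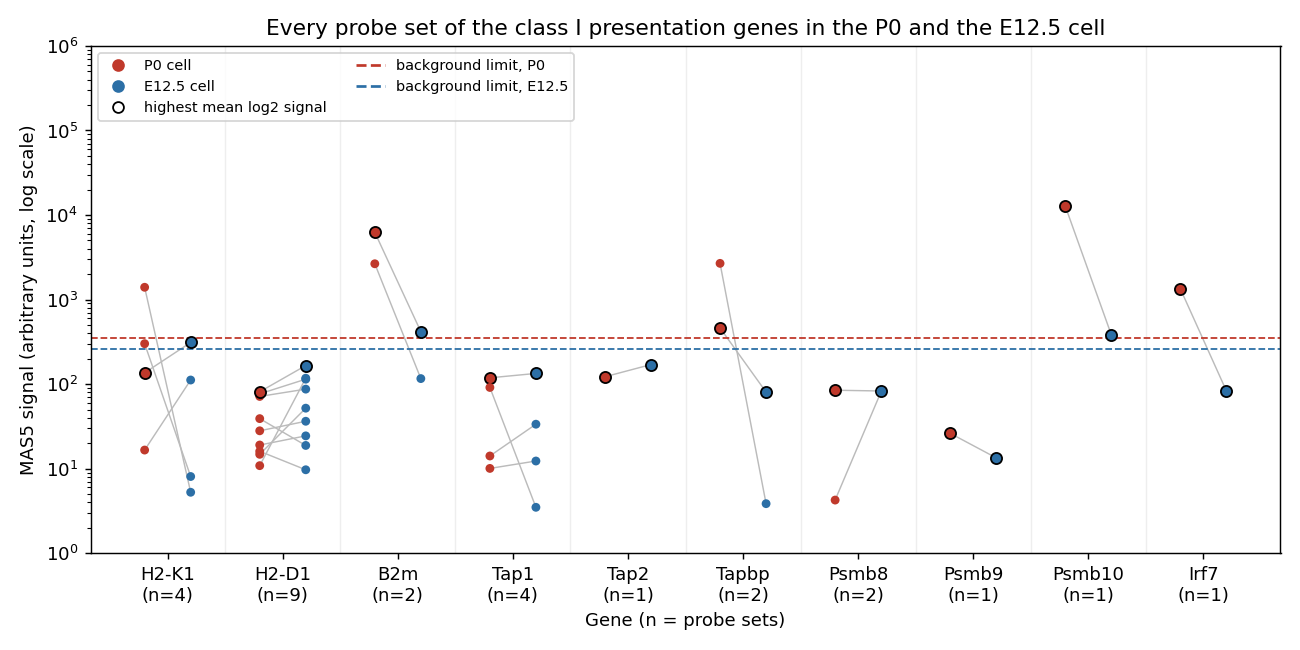
MAS5 signal (log axis) of every probe set of the 10 genes in the newborn (P0) cell (red, left) and the embryonic (E12.5) cell (blue, right), with grey lines joining the same probe set, black rings on the probe set that represents the gene and dashed lines at the background limits. B2m, Psmb10, Irf7 and 1 of 2 Tapbp probe sets fall steeply to the right. So do the H2-K1 probe sets at 1397 and 301 in the newborn cell, while the remaining H2-K1 probe sets rise. All points of H2-D1, Tap1, Tap2, Psmb8 and Psmb9 lie below both lines.

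The light chain was clearly above background in the newborn cell. B2m, which encodes beta-2-microglobulin, the partner that every classical heavy chain needs to reach the surface, had a signal of 6243 in the newborn cell and 417 in the embryonic cell, a 15.0-fold difference. Its second probe set had 2651 in the newborn cell and 116 in the embryonic cell, below the limit, which makes it at least 10.2-fold. Both probe sets thus stood the same way, and the embryonic signal of the first lay not far above that cell's limit of 259. With the arrays scaled to the spike-ins the log2 ratio was 3.04 in place of 3.90.

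The classical heavy chains, which hold the peptide, gave no such picture. H2-D1 was below the limit with all 9 of its probe sets, whose signals ran between 10.8 and 81.1 in the newborn cell and between 9.70 and 166 in the embryonic cell. The 4 probe sets of H2-K1 disagreed. One read 1397 in the newborn cell and 5.25 in the embryonic cell, at least 5.40-fold higher in the newborn cell. Another, with the highest mean log2 signal, read 136 in the newborn cell and 311 in the embryonic cell, above the limit in the embryonic cell only. The remaining pair read 301 and 16.6 in the newborn cell and 8.07 and 112 in the embryonic cell, all below the limits. No direction is therefore given for H2-K1. Of the 13 heavy chain probe sets, 11 have names ending in x, the platform's mark for probes that can bind other transcripts, and the heavy chains are close in sequence and vary between mouse strains, so these signals are uncertain by gene. A further 3 probe sets, annotated to H2-K1 or H2-D1 together with other H2 genes, were below the limit in both cells.

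Among relatives of the classical chains, Fcgrt was the only one of 9 above the limit, and in the newborn cell alone. Of all genes, 28.4% passed it in the newborn cell and 30.2% in the embryonic cell. Fcgrt encodes the neonatal Fc receptor, a class I-like chain that binds antibodies instead of peptides and also pairs with beta-2-microglobulin. Its signal was 2022 in the newborn cell and 163 in the embryonic cell, at least 7.81-fold higher in the newborn cell. The non-classical chains H2-M3, H2-Q2, H2-Q10, H2-T24 and H2-Bl, the lipid-presenting Cd1d1, the metabolite-presenting Mr1 and the iron regulator Hfe were below the limit in both cells.

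Of the 3 members that bring peptides to the heavy chain, only the loading factor passed the limit used here. Tapbp encodes tapasin, which bridges the peptide transporter and the empty class I molecule. A probe set of Tapbp read 2679.8 in the newborn cell and 3.85 in the embryonic cell, at least 10.3-fold higher in the newborn cell. The other, which represents the gene by its higher mean, read 461 in the newborn cell and 80.5 in the embryonic cell, at least 1.78-fold and short of a call. With the mean over both probe sets Tapbp was called, at a log2 ratio of 2.10. Both were above the limit in the newborn cell only. Tap1 and Tap2 encode the transporter's subunits. The 4 probe sets of Tap1 read 10.1, 14.1, 91.2 and 119 in the newborn cell and 12.3, 33.5, 3.49 and 134 in the embryonic cell, in that order of probe sets. The single probe set of Tap2 read 122 in the newborn cell and 170.3 in the embryonic cell. Neither subunit passed a limit in either cell. This depended on the limit chosen. At the 95th percentile of the background genes it was 91.3 in the newborn cell and 113 in the embryonic cell. Tap2 and the brightest Tap1 probe set passed that lower limit in both cells, and also the limit from bacterial controls. Loss of a transcript during amplification from a single cell cannot be told apart from its absence.

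The general chaperones that serve class I loading besides other proteins were above background in both cells. Of 10 genes of loading and quality control, 8 passed the limit in the newborn cell and 7 in the embryonic cell. Of all genes, 28.4% passed it in the newborn cell and 30.2% in the embryonic cell. The glucosidase subunit gene Ganab, which trims sugars so that chaperones can bind, was 6.83-fold higher in the newborn cell (6108 against 894 in the embryonic cell), a log2 ratio of 1.91 and no call with the arrays scaled to the spike-ins. Of the 10 genes, 1 was called higher in the newborn cell and 0 in the embryonic cell, beside 9.23% and 7.3% of all genes. The second probe set of Ganab was below the limit in both. Hspa5, the chaperone BiP, had 28648 in the newborn cell and 18989.7 in the embryonic cell. Sec61a1, a subunit of the channel through which proteins enter the endoplasmic reticulum, had 13721 in the newborn cell and 12239 in the embryonic cell. Calreticulin (Calr) had 8831 in the newborn cell and 13555 in the embryonic cell, and calnexin (Canx) had 7345 in the newborn cell and 9546 in the embryonic cell, while another Canx probe set pointed the other way (7276 in the newborn cell and 2913 in the embryonic cell). Erap1, the aminopeptidase that trims peptides to the length class I molecules hold, had 979 in the newborn cell and 4.39 in the embryonic cell, at least 3.78-fold and just short of a call. Pdia3, the disulphide isomerase of the loading complex, had 2519 in the newborn cell and 1862 in the embryonic cell, and its second probe set was called the opposite way. The median log2 ratio of the 8 genes above a limit was 0.51, beside 0.02 over the 7265 genes above a limit in at least 1 cell.

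The catalytic subunits of the immunoproteasome were split. Psmb10, the interferon-induced subunit that takes the place of Psmb7, had a signal of 12719 in the newborn cell and 383 in the embryonic cell, 33.2-fold higher in the newborn cell. It has a single probe set, and its log2 ratio was 4.19 after scaling to the spike-ins, against 5.05. Psmb8, which takes the place of Psmb5, read 84.6 and 4.25 in the newborn cell and 82.9 and 81.6 in the embryonic cell over its 2 probe sets. Psmb9, which takes the place of Psmb6, read 26.2 in the newborn cell and 13.4 in the embryonic cell. Neither Psmb8 nor Psmb9 passed a limit in either cell, so of the 3 induced subunits only Psmb10 was detected.

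Of their 3 constitutive counterparts, 0 were called higher in the newborn cell and 1, Psmb6, in the embryonic cell, beside 9.23% and 7.3% of all genes. Psmb7, the subunit that Psmb10 displaces, had 4736 in the newborn cell and 8978 in the embryonic cell, 1.90-fold higher in the embryonic cell. Psmb5 had 5808 in the newborn cell and 13004 in the embryonic cell, a 2.24-fold difference, and Psmb6 had 2687 in the newborn cell and 11175.5 in the embryonic cell, 4.16-fold higher in the embryonic cell. All 3 have a single probe set, the log2 ratio of Psmb7 (-0.92) lies within the root mean square difference of 1.16 given above for paired probe sets, and that of Psmb5 (-1.16) is about as large. The call of Psmb6 was lost under quantile normalisation, and Psmb5 was called as well after scaling to the spike-ins. The signals of an induced subunit and of its counterpart come from different probes and are not set against each other.

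**Figure D2:**
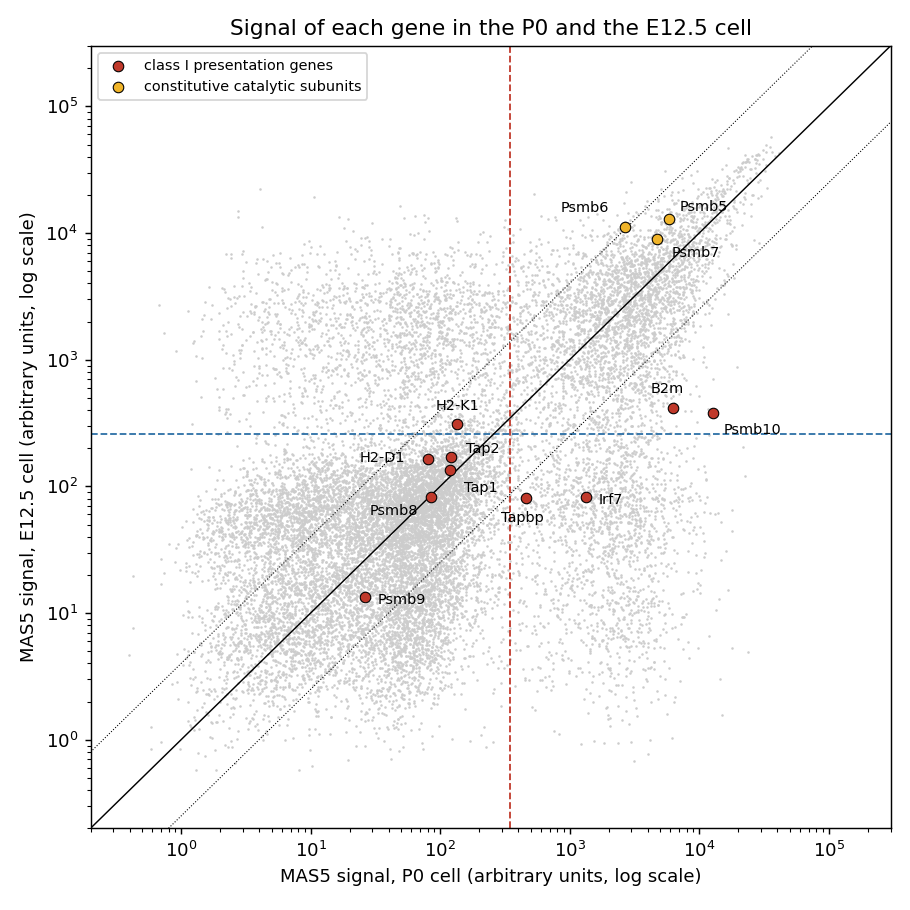
MAS5 signal of each gene in the newborn (P0) cell (horizontal, log axis) and the embryonic (E12.5) cell (vertical, log axis), 1 grey point a gene, with class I presentation genes in red and constitutive proteasome subunits in yellow. Dashed lines are the background limits, the solid line marks equal signal and dotted lines 4-fold differences. Signals are drawn here without being raised to the limits. Psmb10, B2m and Irf7 lie far to the right of the lower dotted line, and Tapbp lies to its right by less. Psmb5, Psmb6 and Psmb7 lie above the solid line.

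Proteasome caps and assembly factors were above the limit in most cases, 7 of 8 in each cell, with a median log2 ratio of -0.68. Of all genes, 28.4% passed it in the newborn cell and 30.2% in the embryonic cell. Psmg1, an assembly chaperone of the proteasome core, was at least 8.16-fold higher in the newborn cell (2113 against 74.2 in the embryonic cell). Psme1, a subunit of the interferon-induced cap PA28, had 4045 in the newborn cell and 15589 in the embryonic cell, 3.85-fold higher in the embryonic cell and short of a call. Psme4, a cap used in chromatin-linked degradation, was 3.87-fold higher there (1753 in the newborn cell and 6786 in the embryonic cell). Of its 5 other probe sets, 2 were called higher in the embryonic cell, 1 was 3.56-fold higher there, 1 was above the limit in that cell alone by little and 1 was below it in both. Psmg2, an assembly chaperone that pairs with Psmg1, had 3129 in the newborn cell and 6531 in the embryonic cell. Pomp, the maturation factor needed by both forms of the proteasome, had 4704.5 in the newborn cell and 5764 in the embryonic cell. With the arrays scaled to the spike-ins Psme1, Psme3 and Psme4 were called higher in the embryonic cell.

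Irf7, a transcription factor that drives type I interferon genes and is itself raised by interferon, had a signal of 1338 in the newborn cell and 83.0 in the embryonic cell on its only probe set. The difference was at least 5.17-fold. That bound rests on the embryonic cell's limit: with a wider set of background families, tried after the data had been seen, the log2 bound was 1.73 and the call was lost, as it was after scaling to the spike-ins (1.50).

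Other regulators of class I transcription were called in both directions. Of 16 interferon regulatory factors and class I transactivators, 9 passed the limit in the newborn cell and 8 in the embryonic cell, beside 28.4% and 30.2% of all genes. The median log2 ratio of the 11 above a limit was -0.52. Called higher were 1 of the 16 in the newborn cell and 1 in the embryonic cell, beside 9.23% and 7.3% of all genes. Irf3, the factor that starts interferon induction after viral sensing, was at least 12.7-fold higher in the newborn cell (3292 against 27.9 in the embryonic cell), and a second probe set above the limit was called the same way. Rfxap, a subunit of the RFX complex that binds the X box of MHC promoters, was at least 5.54-fold higher in the embryonic cell (53.3 in the newborn cell and 1935 in the embryonic cell), and its second probe set pointed the same way by less than 4-fold. The other RFX subunits were above the limit in both cells, Rfx5 with 3316 in the newborn cell and 4760.1 in the embryonic cell and Rfxank with 1425 in the newborn cell and 2067 in the embryonic cell. The NF-Y subunit gene Nfyb had 1257 in the newborn cell and 2343 in the embryonic cell, and the NF-kappaB subunit gene Rela had 852 in the newborn cell and 2713 in the embryonic cell. Nlrc5, the main transactivator of class I genes, and Irf8 and Irf9 were below it in both. Irf1, an activator of class I and immunoproteasome promoters, had 49.0 in the newborn cell and 430.1 in the embryonic cell, where alone it passed the limit.

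Interferon receptors and their signalling genes were called in both directions, 1 of 13 higher in the newborn cell and 2 in the embryonic cell, beside 9.23% and 7.3% of all genes. The phosphatase gene Ptpn2, which dampens JAK and STAT signalling, was 11.5-fold higher in the newborn cell (5214 against 452 in the embryonic cell), and a second probe set was called the same way. The receptor chain gene Ifnar2 was at least 4.4-fold higher in the embryonic cell (41.9 in the newborn cell and 1535 in the embryonic cell), and 1 of 2 further probe sets was called the same way. The other pointed the opposite way, at least 3.12-fold higher in the newborn cell (808 against 72.9 in the embryonic cell), so the probe sets of Ifnar2 disagreed. The inhibitor gene Socs3 was at least 4.57-fold higher in the embryonic cell (69.3 in the newborn cell and 1596 in the embryonic cell). Both lost their call with the wider background families. Jak1 had 3631 in the newborn cell and 1832 in the embryonic cell, and Stat2 had 1023 in the newborn cell and 16.4 in the embryonic cell, at least 3.95-fold. The receptor chain gene Il10rb had 1636 in the newborn cell and 2251 in the embryonic cell. Ifnar1, Ifngr1, Ifngr2, Ifnlr1, Jak2, Tyk2 and Socs1 were below the limit in both cells.

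Most interferon-stimulated genes were below the limit in both cells, as were most genes of the array. Of 37 measured, 3 passed the limit in the newborn cell and 5 in the embryonic cell, beside 28.4% and 30.2% of all genes. In at least 1 cell 7265 of all 18194 genes passed, and 7 of these 37, whose median log2 ratio was -0.56. Genes that respond strongly to interferon in many cell types, among them Ifit1, Ifit3, Mx1, Oas2, Rsad2, Usp18, Gbp2, Irgm1, Bst2 and Cxcl10, were among those below. This too depended on the limit. At the 95th percentile (91.3 in the newborn cell and 113 in the embryonic cell) Ifit3 passed in both cells, with 95.5 and 137. Bst2 (119), Rsad2 (96.3) and Oas2 (92.7) passed in the newborn cell alone, and the others named did not pass. Samhd1, a nucleotide hydrolase that limits viral replication, was at least 9.5-fold higher in the newborn cell (2459 against 59.6 in the embryonic cell), and Ddx58, which encodes the RNA sensor RIG-I, at least 7.88-fold (2041 against 3.69 in the embryonic cell). Each rests on 1 probe set, the 4 others of Samhd1 and the 2 others of Ddx58 being below the limit in both cells. Ifi35 was at least 8.31-fold higher in the embryonic cell (41.3 in the newborn cell and 2902 in the embryonic cell), and a second probe set pointed the same way just short of a call. Ifitm2, a membrane protein gene that limits viral entry, was above the limit in both (3864 in the newborn cell and 5744 in the embryonic cell). The kinase gene Eif2ak2 read 16.7 in the newborn cell and 1374 in the embryonic cell, short of a call at 3.93-fold, and Pml read 176 in the newborn cell and 461 in the embryonic cell.

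Of 11 nucleic acid sensors and adaptors, 2 were called higher in the newborn cell and 0 in the embryonic cell, beside 9.23% and 7.3% of all genes. With so few genes nothing is read from these counts. Mavs, the mitochondrial adaptor of RIG-I, was at least 6.22-fold higher (1611 in the newborn cell and 240.4 in the embryonic cell), and the kinase gene Tbk1, which activates Irf3 and Irf7, was 4.36-fold higher (1469.5 against 337 in the embryonic cell). Both calls were lost after scaling to the spike-ins and with the wider background families. The receptors Tlr3, Tlr7 and Tlr9, the DNA sensor Cgas and its adaptor Sting1 were below the limit in both cells. Over all 8 lists, of 107 measured genes 9 (8.41%) were called higher in the newborn cell and 5 (4.67%) in the embryonic cell, beside 9.23% and 7.3% of all genes, so the lists held no larger share of calls than the array. The counts became 6 in the newborn cell and 11 in the embryonic cell after scaling to the spike-ins. With the mean over probe sets Ganab, Ptpn2, Irf3, Ddx58, Samhd1, Mavs, Ifnar2, Socs3, Rfxap and Ifi35 lost their calls, and without probe sets named as shared Ptpn2, Irf3, Socs3 and Ifi35 did, while Ifnar2 was left with no probe set.

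**Figure D3:**
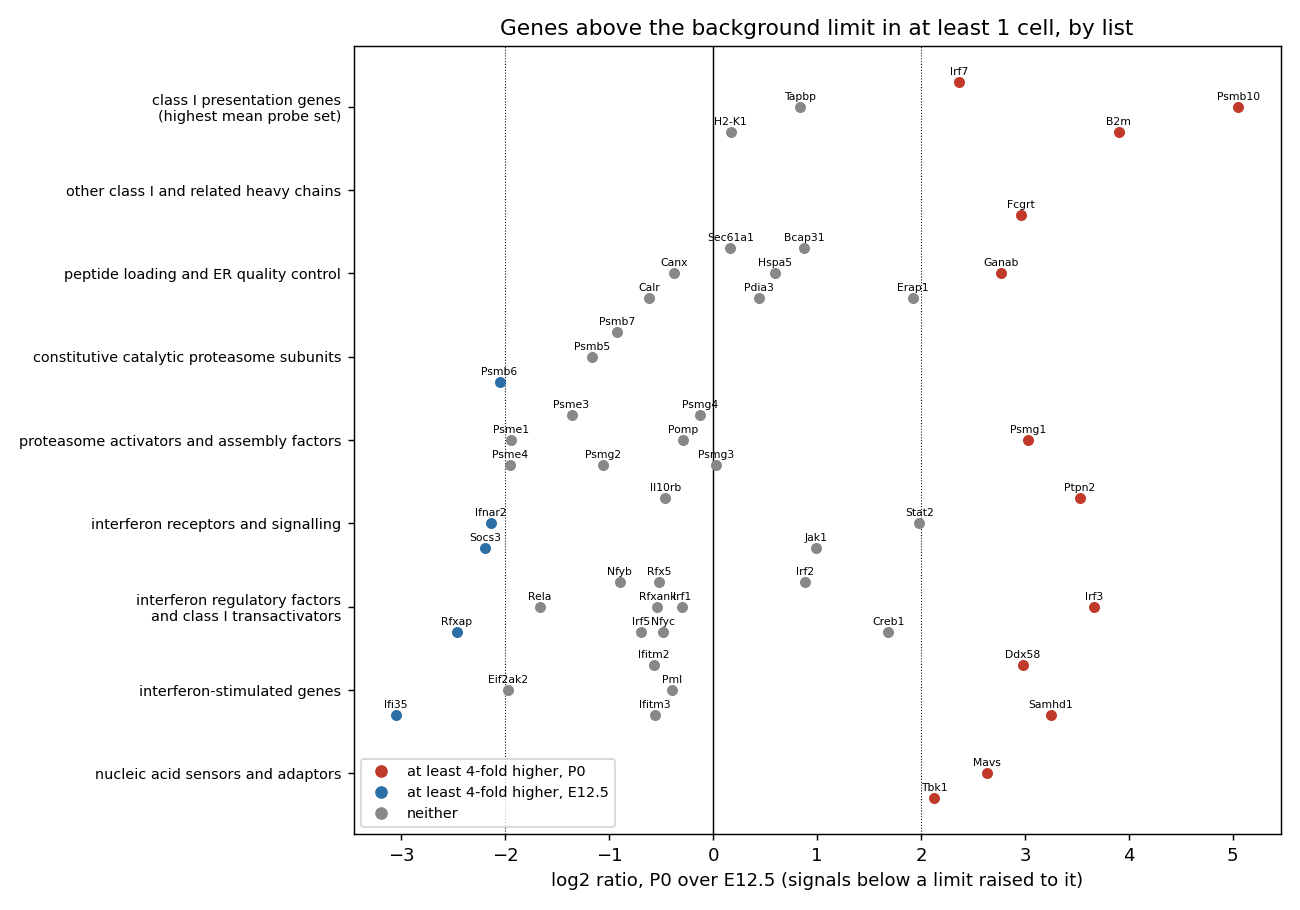
Log2 ratios, newborn (P0) over embryonic (E12.5) signal (horizontal), for the genes above the background limit in at least 1 cell, by list, with signals below a limit raised to it, so that such points are bounds. Red and blue points are called at least 4-fold higher in the newborn and in the embryonic cell, and dotted lines mark 4-fold. Psmb10 stands farthest to the right and Ifi35 farthest to the left, and the genes of most lists lie on both sides of 0.

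Marker genes of antigen-presenting cells, leukocytes and endothelium were below the limit in both cells by the representative probe set. Some pericyte and mesenchymal markers passed it in the newborn cell. Of 10 class II and antigen-presenting cell genes, 15 microglial and leukocyte genes and 11 endothelial genes, 0 passed the limit in either cell by the representative probe set. Of all genes 28.4% passed it in the newborn cell and 30.2% in the embryonic cell. Among all probe sets of these markers only a second one of the class II gene H2-DMa passed, with 17.7 in the newborn cell and 525 in the embryonic cell. Summed over each list the signals were 643, 900.3 and 1071 in the newborn cell and 800.3, 655 and 667 in the embryonic cell. Below the limits the signals lay on both sides, 3 of 10, 7 of 15 and 8 of 11 genes reading higher in the newborn cell. The common leukocyte gene Ptprc read 3.24 in the newborn cell and 26.1 in the embryonic cell, and the complement gene C1qa read 3.67 in the newborn cell and 7.69 in the embryonic cell. The endothelial gene Pecam1 read 9.07 in the newborn cell and 16.4 in the embryonic cell, and the class II invariant chain gene Cd74 read 59.9 in the newborn cell and 79.9 in the embryonic cell. Other markers read higher in the newborn cell, among them the leukocyte genes Laptm5 (218 in the newborn cell and 60.3 in the embryonic cell) and Lyz2 (114 in the newborn cell and 10.7 in the embryonic cell) and the endothelial genes Cdh5 (193 in the newborn cell and 65.4 in the embryonic cell) and Kdr (190.0 in the newborn cell and 63.9 in the embryonic cell). Of 10 pericyte and mesenchymal genes, 3 passed the limit in the newborn cell and 0 in the embryonic cell, beside 28.4% and 30.2% of all genes. The list sums were 7005 in the newborn cell and 709 in the embryonic cell. Above the limit were Pdgfra (3088 in the newborn cell and 63.0 in the embryonic cell), Col1a2 (2653 in the newborn cell and 6.0 in the embryonic cell) and Rgs5 (833 in the newborn cell and 47.9 in the embryonic cell), while Col1a1, Col3a1 and Pdgfrb were below it. A second Pdgfra probe set was called the same way (8978 in the newborn cell and 2.41 in the embryonic cell). Another Rgs5 probe set was above the limit in the newborn cell (415, against 1.85 in the embryonic cell). The remaining probe sets of Pdgfra and Rgs5 were below the limit in both cells. The 2 other probe sets of Col1a2 were below the limit in both cells, and Rgs5, at least 3.22-fold higher, was short of a call. Pdgfra, Col1a2 and Rgs5 read higher in the same cell as B2m and Psmb10, and their part in the result was not tested.

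By position, 7 of the 10 genes lie on chromosome 17 in the MHC, and Tap1, Psmb8 and Psmb9 are close neighbours there. B2m lies on chromosome 2, Irf7 on chromosome 7 and Psmb10 on chromosome 8. The 3 members called higher in the newborn cell by the representative probe set all lie outside the MHC. The neighbours of a member were looked at over 3000 bases to each side, since labelled double-stranded cDNA does not keep strand. Psmb10 has Lcat, a plasma lipid enzyme gene, as a neighbour, with 10809 in the newborn cell and 62.3 in the embryonic cell, at least 41.7-fold higher in the newborn cell. Another neighbour, the protease gene Ctrl, was below the limit in both cells. Beside Tapbp lie Zbtb22, a zinc finger gene with 3746 in the newborn cell and 80.8 in the embryonic cell, at least 14.5-fold higher in the newborn cell, and Rgl2, with 5316 in the newborn cell and 6786 in the embryonic cell. Patl2, which overlaps B2m, read 11.4 in both cells. The neighbours do not overlap Psmb10 or Tapbp in the annotation, and whether transcripts running past a gene's end reached the probes of the next was not tested.

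**Figure D4:**
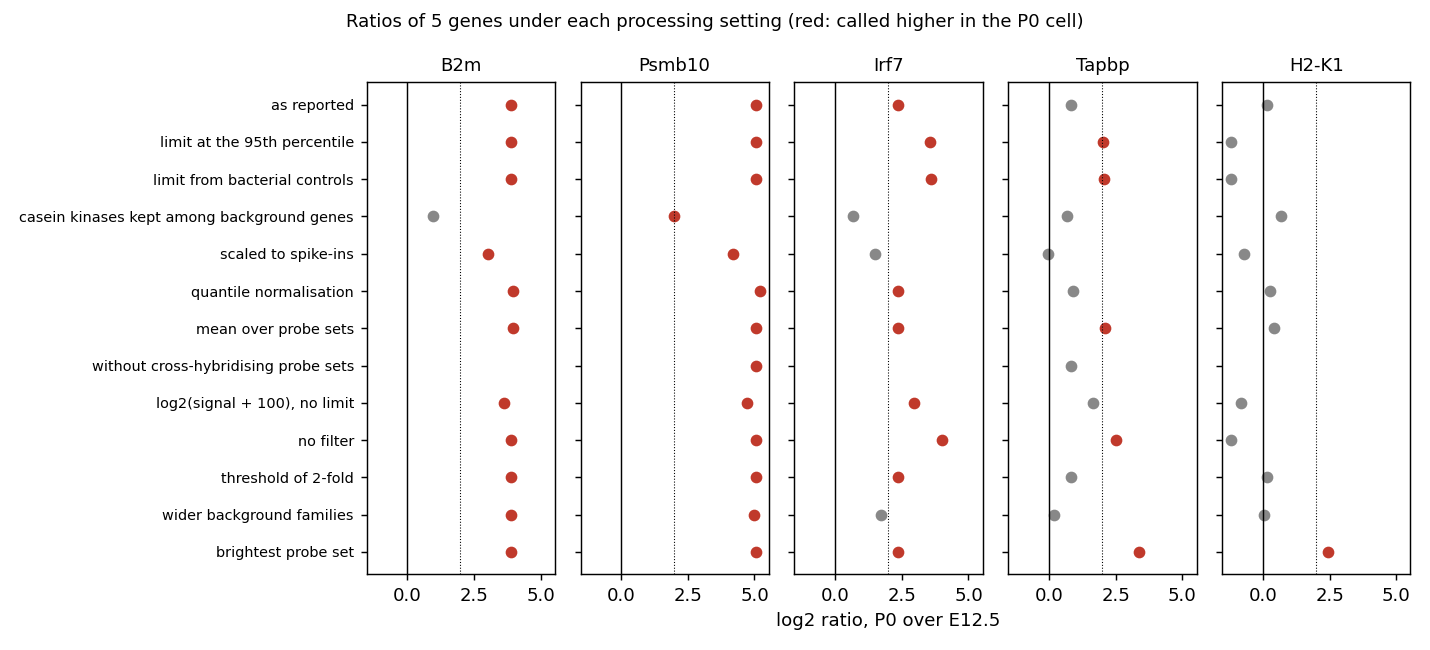
Log2 ratios, newborn (P0) over embryonic (E12.5) signal (horizontal), of 5 genes under the reported processing and each alternative (rows), red where the gene was called higher in the newborn cell and grey where not, with the dotted line at 4-fold. A missing point means that no probe set was left. Psmb10 is red in every row, B2m in all but 1 row with a point, and H2-K1 in 1 row only, with points on both sides of 0.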

How the data were processed

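The authors deposited linear signal intensities made with MAS5, per the labels and the submitters' processing notes. The version and settings of the software were not given in the sources used here. Per the labels' protocols, cDNA from 1 cell was amplified by 35 cycles of PCR and 10 micrograms were labelled. The mean without 2% at each end was 500.0 in both arrays, so each array had been scaled. Depth in reads does not apply, and the number of arrays limits the precision. The sources name no genome build.

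Of 45101 probe sets, 34958 had 1 symbol, 932 several and 9211 were not listed. Symbols of 34754 were updated by gene identifier from RefSeq (GRCm38.p6). Limits, calls and 12 alternatives were computed in Python 3.11.15 with pandas 2.3.3 and were tested on simulated data. Background families were chemosensory receptors (olfactory, vomeronasal, taste), hair keratin-associated and zona pellucida proteins, defensins, protamines, milk caseins, prolactin relatives and urinary proteins. A wider pattern had been tried first and was dropped because families with genes bright in 1 cell raised the limits to 414 in the newborn cell and 404 in the embryonic cell. It was kept as an alternative. The members and all lists were chosen with earlier results of these data known. Named are all members, list genes that were called, up to 3 further genes a list of highest mean signal and markers of other cell types above a limit. Genes named beyond these, among them neighbours, ciliary margin and progenitor genes, Canx, Psme4 and genes below the limits, were chosen after their values were seen. With 1 cell per age no test was possible. Protein comparisons were not made.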

Additional observations from a re-analysis of the deposited data

How the results depend on the processing

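Psmb10 was called higher in the newborn cell under all 12 alternatives, with log2 ratios between 2.00 and 5.21. B2m was called under 10 of the 11 that left it a probe set and lost the call (0.97) with casein kinases among the background genes, which raised the limits to 5129 in the newborn cell and 3178 in the embryonic cell. Irf7 was called under 8 of 11, Tapbp under 5 of 12 and H2-K1 under 1 of 11, with the brightest probe set (2.43). Tap1, Tap2, Psmb8, Psmb9 and H2-D1 were called under none of those that left them a probe set. No member was called higher in the embryonic cell under any alternative.

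Members called higher in the newborn cell numbered 1 with casein kinases kept, 1 without probe sets named as shared between transcripts or genes, which leaves B2m, Irf7, Tap2, Psmb8 and H2-K1 with none, and 5 with the brightest probe set, against 3. Members above the limit in the newborn and the embryonic cell numbered 7 and 6 at the 95th percentile, 7 and 6 with bacterial controls, 2 and 0 with casein kinases and 2 and 1 without shared probe sets. In the embryonic cell 1 was above it with the mean over probe sets and 1 with the wider families. All genes called higher in the newborn and the embryonic cell numbered 24 and 5 with casein kinases, 1045 and 2115 after scaling to spike-ins, 862 and 700 with the mean over probe sets and 3924 and 4115 without a filter, against 1680 and 1328. Those higher in the embryonic cell numbered 2009 at the 95th percentile, 2004 with bacterial controls and 2280 at a 2-fold threshold. List genes called higher in the newborn and the embryonic cell numbered 0 and 0 with casein kinases, 3 and 2 with the mean over probe sets and 25 and 20 without a filter, against 9 and 5. Those higher in the embryonic cell numbered 8 at the 95th percentile, 8 with bacterial controls, 11 after scaling to spike-ins, 2 without shared probe sets, 12 at 2-fold and 3 with the wider families. Where no construction is named, the cause was not tested. No paired analysis was possible because each age is 1 cell. The wider families and the brightest probe set were chosen after seeing the data.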
